A study of Mus musculus with 20 samples.

Results

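The cells of the basal epidermal layer are held on the basement membrane by hemidesmosomes, and the genes examined here encode their parts: Itga6, Itgb4, Cd151, Plec, Dst, Col17a1, Lama3, Lamb3 and Col7a1. These 9 genes were chosen by name, out of 18193 genes on the array. They are represented by 21 probesets that the annotation gives to a single gene. A gene was read by its brightest probeset (by the mean of the 20 arrays), and any others served as a check. The samples were total RNA from whole skin of wild type FVB mice of 2 months (n = 5) and from spontaneous FVB skin tumors of 2 genotypes. In the Trp53ΔEC tumors (n = 7) Cre recombinase under the keratin K14 promoter, which acts in stratified epithelia, had removed floxed Trp53, and in the RbΔEC; Trp53ΔEC tumors (n = 8) it had removed floxed Rb1 and floxed Trp53. The labels give no age for the tumors and leave it unsaid if they are from separate mice. The p-values set group differences against the spread among these samples. They treat the tumors as independent, which would not hold if some came from the same mouse. By histology 6 tumors were poorly differentiated carcinomas (Trp53ΔEC tumors 4 and 6 and RbΔEC; Trp53ΔEC tumors 2, 6, 7 and 8). The 5 undifferentiated/spindle carcinomas were undifferentiated Trp53ΔEC tumor 2 and RbΔEC; Trp53ΔEC tumors 3 and 5, followed by the spindle cell carcinomas Trp53ΔEC tumor 1 and RbΔEC; Trp53ΔEC tumor 1. The 4 mixed tumors were Trp53ΔEC tumors 3, 5 and 7 and RbΔEC; Trp53ΔEC tumor 4. Values of these last 2 classes are listed below in that order.

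A hemidesmosome is a plaque that ties the keratin filaments of a basal keratinocyte to the extracellular matrix. Inside the cell plectin (Plec) and the epithelial product of dystonin (Dst) bind the keratins, and they are joined to a laminin receptor made of the integrin chains Itga6 and Itgb4, to the transmembrane collagen XVII (Col17a1) and to the tetraspanin Cd151. Outside, the receptor binds an epithelial laminin whose chains include Lama3 and Lamb3, and anchoring fibrils of collagen VII (Col7a1) hold this laminin to the dermis. Loss of such components causes blistering disease in humans, and hemidesmosomes are known to be taken apart when keratinocytes migrate or turn mesenchymal.

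All values are log2 RMA values, so that a difference of 1 is a doubling, and array medians lay between 5.59 and 5.75. The labelled tissues were checked against marker genes. The mean of 7 epithelial markers ran from 10.08 to 10.58 in skin, from 10.41 to 11.79 in poorly differentiated tumors, from 6.82 to 11.25 in mixed tumors and from 5.57 to 8.67 in undifferentiated/spindle carcinomas. Because the samples are bulk tissue, fewer epithelial cells and less RNA per epithelial cell cannot be told apart in any value below. The log2 difference between the 3′ and 5′ probesets of Actb, a sign of RNA degradation, ran from 0.50 to 1.19 in skin, from 0.42 to 0.82 in poorly differentiated tumors and from 0.24 to 0.38 in undifferentiated/spindle carcinomas. Its part in the results was not tested. The targeted gene Rb1 ran from 6.55 to 8.14 in RbΔEC; Trp53ΔEC tumors, from 7.85 to 8.84 in Trp53ΔEC tumors and from 8.95 to 9.26 in skin, without knowing whether its probes lie in the deleted exon, and Trp53 was not analysed here.

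The sequence before the start site is shown for those of the 4 genes with the largest differences between tumor classes that had a window (Col17a1, Lamb3, Dst), with Col7a1 as a member that was not called between poorly differentiated and undifferentiated/spindle tumors. RefSeq promoters of build GRCm38.p6 matched 5 of the 9 genes with 8 windows, and Itga6, Itgb4, Plec and Lama3 were not among them. Each window is the 250 bases before a start site, written 5′ to 3′ on the gene's strand, with motif matches in capitals. Dst, Lamb3 and Cd151 each have a pair of start sites in the table. Both Dst windows are shown, and of Lamb3 only the downstream one, since the window just before it (chr1:193301744-193301993) held no match. The Cd151 windows are described below and not shown.
Col17a1 (chr19:47692043-47692292, minus strand): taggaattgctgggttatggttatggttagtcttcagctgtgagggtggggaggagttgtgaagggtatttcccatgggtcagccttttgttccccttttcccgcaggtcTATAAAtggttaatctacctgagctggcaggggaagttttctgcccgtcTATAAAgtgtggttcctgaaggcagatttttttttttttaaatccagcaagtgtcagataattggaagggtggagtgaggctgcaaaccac
Dst, upstream start (chr1:34011345-34011594, plus strand): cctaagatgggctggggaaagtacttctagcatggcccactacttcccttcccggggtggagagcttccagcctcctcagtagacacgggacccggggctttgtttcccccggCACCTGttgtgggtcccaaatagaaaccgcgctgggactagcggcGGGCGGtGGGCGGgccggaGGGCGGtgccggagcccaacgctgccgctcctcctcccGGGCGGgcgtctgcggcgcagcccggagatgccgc
Dst, downstream start (chr1:34160010-34160259, plus strand): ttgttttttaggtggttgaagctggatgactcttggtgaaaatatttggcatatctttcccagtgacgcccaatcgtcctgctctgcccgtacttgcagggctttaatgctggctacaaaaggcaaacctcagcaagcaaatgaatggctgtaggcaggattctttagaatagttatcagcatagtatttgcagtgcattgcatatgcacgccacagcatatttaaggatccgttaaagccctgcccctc
Lamb3, downstream start (chr1:193301993-193302242, plus strand): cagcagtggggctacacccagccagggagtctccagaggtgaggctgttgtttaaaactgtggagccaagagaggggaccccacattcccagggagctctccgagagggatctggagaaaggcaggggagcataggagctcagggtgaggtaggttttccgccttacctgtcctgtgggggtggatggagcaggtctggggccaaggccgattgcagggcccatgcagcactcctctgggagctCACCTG
Col7a1 (chr9:108953336-108953585, plus strand): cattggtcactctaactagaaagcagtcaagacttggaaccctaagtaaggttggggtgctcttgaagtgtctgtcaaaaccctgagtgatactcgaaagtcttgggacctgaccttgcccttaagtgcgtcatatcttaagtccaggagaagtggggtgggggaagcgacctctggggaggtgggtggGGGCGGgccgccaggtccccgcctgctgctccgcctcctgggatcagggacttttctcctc

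In capitals are 3 kinds of match, searched on both strands. The TATA-like letters TATAAA (or TTTATA) stood in the Col17a1 window alone among the 8, beginning 140 and 91 bases before the start, and in 12.4% of the 32851 promoters of the same length. The letters CACCTG (or CAGGTG), an E-box that Zeb and Snail repressors are known to bind, began 137 bases before the upstream Dst start and 6 bases before the downstream Lamb3 start. It also began 186 bases before the upstream start of Cd151, a gene not called with grade, and it occurred in 17.2% of all promoters. GC boxes (GGGCGG or CCGCCC), which occurred in 32.7% of all promoters, began 92, 85, 73 and 35 bases before the upstream Dst start, 61 bases before the Col7a1 start, and 25 and 8 bases before the upstream Cd151 start. The downstream Dst window held none of these matches. The AP-1 letters TGANTCA (6.75% of all promoters) were in none of the 8 windows, and the p53-family half-site (7.13%) matched once, 50 bases before the upstream Cd151 start. These matches describe letters and not binding.

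The loss of epithelial form in the most advanced tumors raised the question of what happens to the anchoring genes with grade. In undifferentiated/spindle carcinomas compared with poorly differentiated ones, 6 of the 9 genes fell and none rose by limma at an adjusted p under 0.05, against backgrounds of 9.9% of all genes called lower and 12.7% called higher. The classes did not overlap in these 6 genes, a separation downwards that 6.89% of all genes shared. The falls ran from 2.93-fold in Itga6 to 84.4-fold in Col17a1, while Plec, Col7a1 and Cd151 were not called. The median difference of the 9 genes was −3.47, against 0.01 over all genes. At an unadjusted p under 0.05, 1 gene was higher (Plec), and the methods' t-test with equal or unequal variances called 0 higher.

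Among the receptor genes, Itga6, the chain that Itgb4 pairs with in hemidesmosomes, was bright in every class. It lay at 10.76, 10.80, 10.90, 11.02 and 11.12 in skin and between 11.37 and 12.63 (median 11.93) in poorly differentiated tumors. In undifferentiated/spindle carcinomas it was 11.02, 10.05, 9.91, 10.72 and 10.43, and in mixed tumors 11.71, 12.52, 10.20 and 8.80. The undifferentiated/spindle range lay wholly below the poorly differentiated one but overlapped that of skin, and the lowest sample of all was mixed RbΔEC; Trp53ΔEC tumor 4. Itga6 fell by 1.55 with grade (standard error 0.27, adjusted p = 0.00154, limma), and its other probeset gave −1.48.

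Itgb4, whose long cytoplasmic tail binds plectin, fell by more. It lay at 8.90, 8.94, 8.97, 9.01 and 9.35 in skin and between 8.69 and 10.53 (median 9.82) in poorly differentiated tumors. The undifferentiated/spindle carcinomas gave 6.96, 5.42, 6.45, 6.43 and 6.30 and the mixed tumors gave 8.38, 9.39, 6.98 and 5.17. All 5 undifferentiated/spindle values were below every skin and every poorly differentiated value. Itgb4 fell by 3.47 with grade (standard error 0.34, adjusted p = 2.95e-05, limma), an 11.1-fold difference.

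The integrin pair was therefore compared within each array, where array-wide scaling cancels. The log2 value of Itga6 minus that of Itgb4 averaged 2.19 in poorly differentiated tumors (range 1.74 to 2.90), 3.33 in mixed tumors (3.14 to 3.63) and 4.11 in undifferentiated/spindle carcinomas (3.46 to 4.63). The difference of 1.92 between the outer classes gave p = 0.00216 in a two-sided exact permutation test, the minimum for 462 regroupings, and an adjusted p of 0.00974 over the 9 ratio comparisons made. By the brighter Itga6 probeset, which all these ratios use, mixed tumors also lay above poorly differentiated ones with no overlap (exact permutation p = 0.00952, adjusted p = 0.0286). Against undifferentiated/spindle carcinomas they were lower by 0.79 on average with overlapping ranges (exact permutation p = 0.0238, adjusted p = 0.0357), which held only without RbΔEC; Trp53ΔEC tumor 4 or 5 of the 9 samples left out in turn (otherwise exact permutation p = 0.0571 or 0.0714). The other Itga6 probeset averaged 10.04 in mixed tumors, against 10.81 for the brighter one, and 11.73 against 11.98 in poorly differentiated tumors. With it the ratio's gap between these classes is smaller and their ranges overlap, while the outer classes stay separate. No test was run on that ratio. Since Itga6 also pairs with the integrin chain Itgb1 and is known in endothelium, the markers of that cell type are given beside it. The mean of 7 endothelial markers ran from 7.15 to 8.30 in undifferentiated/spindle carcinomas and from 5.73 to 7.25 in poorly differentiated ones, 5 of the 7 were called higher, and their part in the ratio was not tested. The mean of 5 macrophage markers ran from 10.47 to 10.68 in undifferentiated/spindle carcinomas, from 7.21 to 9.46 in poorly differentiated and from 7.62 to 8.66 in mixed tumors, 4 of the 5 were called higher with grade (median difference 2.36), and all 5 were called lower in mixed than in undifferentiated/spindle tumors. Their part in the differences between these classes was not tested.

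**Figure D1:**
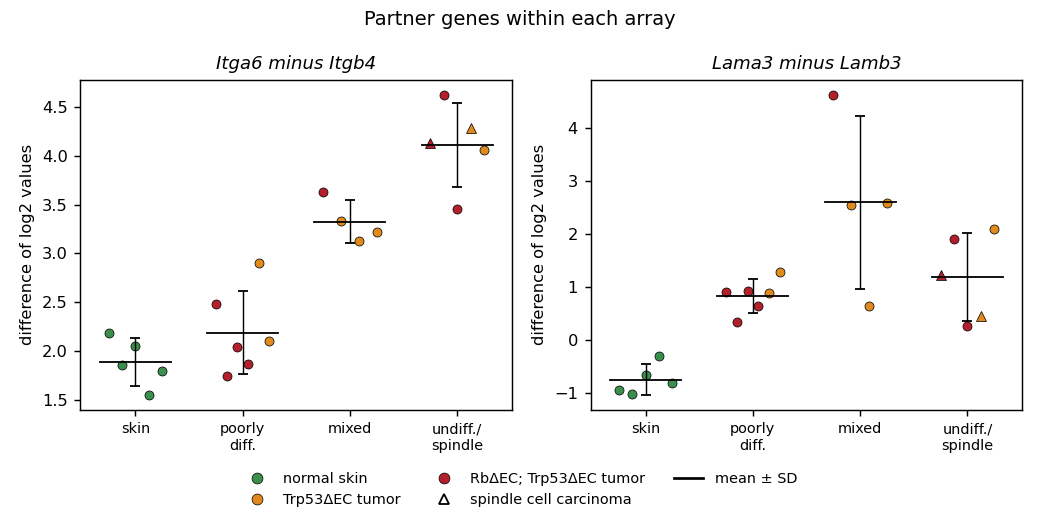
Itga6 minus Itgb4 (left) and Lama3 minus Lamb3 (right), as differences of log2 values within each array, for skin, poorly differentiated, mixed and undifferentiated/spindle samples; points are samples, coloured by genotype, and bars are mean ± SD. By the brighter Itga6 probeset the integrin difference averaged 2.19 in poorly differentiated, 3.33 in mixed and 4.11 in undifferentiated/spindle tumors. The laminin difference was highest in mixed RbΔEC; Trp53ΔEC tumor 4 (4.63).

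Col17a1, the transmembrane collagen of the plaque, showed the largest fall of the 9 genes. It lay at 11.42, 11.45, 11.50, 11.57 and 11.94 in skin and between 11.04 and 12.10 (median 11.67) in poorly differentiated tumors. In undifferentiated/spindle carcinomas it was 7.38, 4.11, 5.28, 4.19 and 5.22, and in mixed tumors 10.06, 9.53, 8.03 and 3.98. Skin and poorly differentiated tumors overlapped, and 4 of the 5 undifferentiated/spindle carcinomas were below the lowest array median, with Trp53ΔEC tumor 2 above it. Col17a1 fell by 6.40 with grade (standard error 0.51, adjusted p = 6.84e-06, limma).

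The laminin chains fell as well. Lama3 lay at 8.47, 8.59, 8.62, 8.76 and 9.49 in skin and between 9.95 and 12.11 (median 10.70) in poorly differentiated tumors. The undifferentiated/spindle carcinomas gave 7.46, 6.19, 5.14, 5.16 and 5.90 and the mixed tumors gave 11.95, 8.76, 10.10 and 9.03. The 3 classes of skin, poorly differentiated and undifferentiated/spindle samples did not overlap, with poorly differentiated tumors on top. Lama3 fell by 4.98 with grade (standard error 0.47, adjusted p = 2.35e-05, limma). A second Lama3 probeset, dim in poorly differentiated tumors (4.28 to 4.61), moved by 0.02.

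Lamb3, the beta chain of the same laminin, followed Lama3 in the undifferentiated/spindle carcinomas. It lay at 9.42, 9.42, 9.44, 9.61 and 9.79 in skin and between 9.07 and 11.78 (median 9.84) in poorly differentiated tumors. In undifferentiated/spindle carcinomas it was 5.37, 4.28, 4.87, 4.71 and 4.68, and in mixed tumors 9.41, 8.12, 7.52 and 4.40. All 5 undifferentiated/spindle values were below the lowest array median, so the fall of 5.33 (standard error 0.40, adjusted p = 4.38e-06, limma) ends in the dim range of the array, where differences are compressed. The value of Lama3 minus Lamb3 averaged 0.83 in poorly differentiated tumors and 1.19 in undifferentiated/spindle carcinomas (exact permutation p = 0.338, adjusted p = 0.338).

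**Figure D2:**
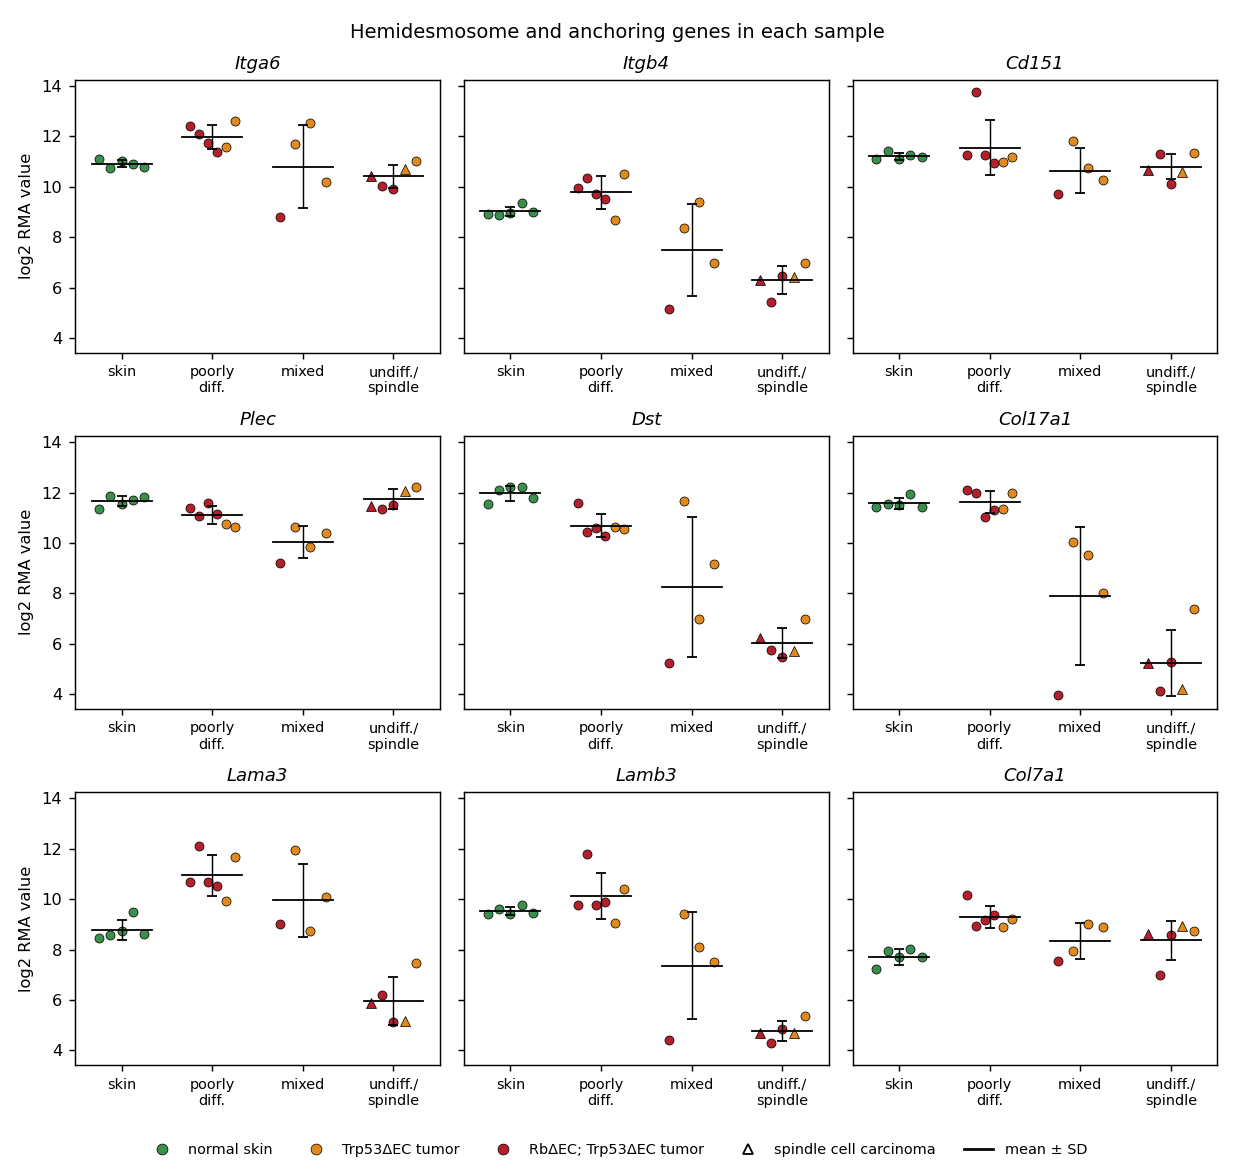
Log2 RMA value of each of the 9 genes in each of the 20 samples, by class; points are samples coloured by genotype, triangles are spindle cell carcinomas, and bars are mean ± SD. Col17a1, Lamb3 and Dst sit between 4.11 and 7.38 in undifferentiated/spindle carcinomas, while Plec and Cd151 stay at or above 10.13 there.

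Dst, whose epithelial product links the plaque to keratin and whose other products serve muscle and neurons, was read by 4 probesets that did not move together. The brightest, 1421117_at, lay at 11.55, 11.80, 12.11, 12.21 and 12.21 in skin and between 10.30 and 11.61 (median 10.58) in poorly differentiated tumors. It was 7.0, 5.75, 5.47, 5.73 and 6.22 in undifferentiated/spindle carcinomas and 11.66, 6.98, 9.18 and 5.22 in mixed tumors. It fell by 4.66 with grade (standard error 0.29, adjusted p = 1.3e-06, limma), a 25.3-fold difference with no overlap, and the second probeset, 1450119_at, which is annotated to the same transcript record, gave −3.96.

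The other probesets, 1423626_at and 1421276_a_at, are annotated to other transcript records and moved in the opposite direction. The first of them ran from 7.05 to 8.52 (median 7.46) in poorly differentiated tumors and from 9.21 to 9.76 in undifferentiated/spindle carcinomas. It rose by 1.86 with grade (standard error 0.27, adjusted p over all probesets = 0.000594, limma), and 1421276_a_at rose by 1.91 (standard error 0.24, adjusted p over all probesets = 0.000246, limma). In each of them the poorly differentiated and undifferentiated/spindle classes were separate, with the undifferentiated/spindle carcinomas higher, while mixed tumors overlapped poorly differentiated ones. Skin ran from 9.60 to 10.37 in 1423626_at and from 7.25 to 8.43 in 1421276_a_at. The undifferentiated/spindle carcinomas overlapped skin in both, so the rise with grade did not pass the skin level. The value of 1421117_at minus that of 1423626_at averaged 3.07 in poorly differentiated tumors (2.13 to 3.54), −0.15 in mixed tumors (−3.03 to 3.16) and −3.45 in undifferentiated/spindle carcinomas (−4.02 to −2.50). Which Dst isoform each probeset reads, and from which of the start sites above it comes, could not be read from the annotation.

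**Figure D3:**
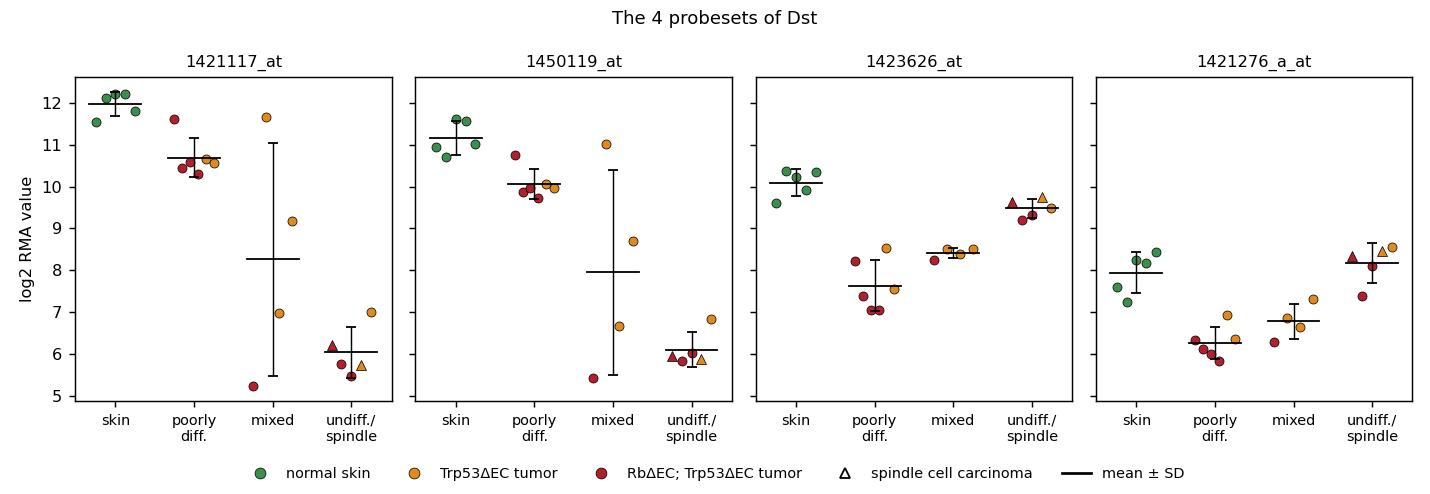
Log2 RMA values of the 4 Dst probesets in skin, poorly differentiated, mixed and undifferentiated/spindle samples, coloured by genotype, with mean ± SD. From poorly differentiated to undifferentiated/spindle tumors the left pair of probesets moved by −4.66 and −3.96 and the right pair by 1.86 and 1.91.

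Plec, the other keratin linker and a protein that also binds actin and intermediate filaments in many tissues, was not among the genes that fell. It lay at 11.36, 11.57, 11.72, 11.83 and 11.87 in skin and between 10.65 and 11.60 (median 11.11) in poorly differentiated tumors. The undifferentiated/spindle carcinomas gave 12.23, 11.37, 11.53, 12.08 and 11.46 and the mixed tumors gave 10.64, 9.85, 10.41 and 9.22. Undifferentiated/spindle and poorly differentiated ranges overlapped, and the difference of 0.63 was not called (standard error 0.21, adjusted p = 0.0557, limma). It was called without RbΔEC; Trp53ΔEC tumor 3 (0.72, adjusted p = 0.0465) or tumor 7 (0.73, adjusted p = 0.0327), and after centring the arrays or leaving out dim genes. The mixed tumors were the lowest class by mean, and its highest tumor (10.64) lay next to the lowest poorly differentiated one (10.65).

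Col7a1, the anchoring fibril collagen, which fibroblasts also make, lay at 7.23, 7.70, 7.70, 7.96 and 8.02 in skin and between 8.90 and 10.15 (median 9.20) in poorly differentiated tumors. In undifferentiated/spindle carcinomas it was 8.75, 7.01, 8.57, 8.94 and 8.61, and in mixed tumors 7.93, 9.02, 8.90 and 7.54. Each class overlapped with a neighbour, RbΔEC; Trp53ΔEC tumor 3 was the lowest of all samples, and the grade difference of −0.92 was not called (standard error 0.34, adjusted p = 0.0777, limma). The mean of 6 fibroblast markers ran from 12.68 to 13.43 in undifferentiated/spindle carcinomas and from 9.25 to 12.88 in poorly differentiated ones, and its part in the Col7a1 level was not tested.

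Cd151, a tetraspanin that binds laminin receptors in many cell types, was close in level in most samples. It lay at 11.09, 11.11, 11.20, 11.28 and 11.42 in skin and between 10.94 and 13.76 (median 11.22) in poorly differentiated tumors. The undifferentiated/spindle carcinomas gave 11.33, 11.30, 10.13, 10.60 and 10.68 and the mixed tumors gave 11.82, 10.76, 10.26 and 9.72. A single tumor, poorly differentiated RbΔEC; Trp53ΔEC tumor 6, stood at 13.76. The grade difference of −0.75 (standard error 0.48, adjusted p = 0.308, limma) was −0.31 without it.

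The fall of 6 genes was examined for its dependence on subtype and genotype. The ranges of the 3 undifferentiated and the 2 spindle cell carcinomas overlapped in 9 of 9 genes. In each genotype alone the same 6 genes were lower in undifferentiated/spindle carcinomas, by 5.90 in Trp53ΔEC and 6.73 in RbΔEC; Trp53ΔEC tumors for Col17a1, by 4.70 and 5.69 for Lamb3, and by 1.24 and 1.78 for Itga6. No gene was called for an interaction of grade and genotype by limma, with 0 of all 18193 genes (0%) called, and 1 of the 9 genes had an unadjusted p under 0.05. This was Plec, with a difference of 1.45 in Trp53ΔEC tumors (10.65 and 10.75 against 12.08 and 12.23) and of 0.15 in RbΔEC; Trp53ΔEC tumors (11.06 to 11.60 against 11.37 to 11.53). The interaction was −1.30 (standard error 0.24, adjusted p = 0.391, limma), so it did not pass the correction.

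**Figure D4:**
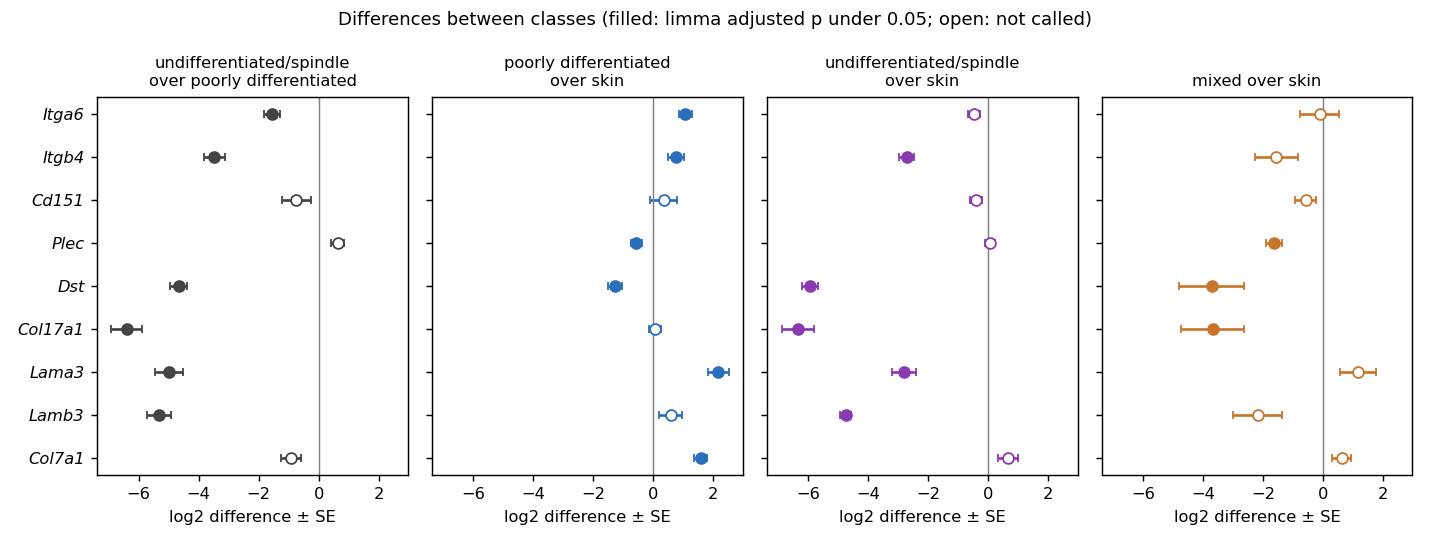
Log2 difference ± standard error of each of the 9 genes in 4 class comparisons; filled points have a limma adjusted p under 0.05, and the vertical line marks no difference. With grade 6 genes lie to the left, from −1.55 in Itga6 to −6.40 in Col17a1, and in poorly differentiated tumors over skin Itga6, Itgb4, Lama3 and Col7a1 lie to the right.

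Poorly differentiated carcinomas were then compared with normal skin, to place the starting level of these changes. In them 4 of the 9 genes rose (background 21.2% of all genes called higher) and 2 fell, a share near the background (22% called lower). The methods' t-test called 3 higher and 2 lower, without Itgb4 (adjusted p = 0.0793 with equal and 0.0822 with unequal variances). Centring the arrays also lost the Itgb4 call (0.65, adjusted p = 0.0867, limma). Lama3 rose by 2.16 (standard error 0.35, adjusted p = 0.000492, limma), Col7a1 by 1.57 (standard error 0.22, adjusted p = 0.000166) and Itga6 by 1.06 (standard error 0.21, adjusted p = 0.00188), each with every tumor above every skin sample (as in 14.3% of all genes). The laminin chain, the anchoring fibril collagen and the integrin chain thus stood 4.47-fold, 2.97-fold and 2.08-fold higher than in skin. The second Itga6 probeset gave 0.62 and was not called (adjusted p over all probesets = 0.0673), and the dim second Lama3 probeset gave −0.32. Itgb4 rose by 0.75 with overlap (standard error 0.28, adjusted p = 0.0465), a call that was lost without any single one of the 5 skin samples, Trp53ΔEC tumor 6 or RbΔEC; Trp53ΔEC tumor 2, 6 or 7 (0.61 to 0.83).

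Dst fell by 1.28 against skin (standard error 0.22, adjusted p = 0.000717, limma), and here all 4 of its probesets were lower (−1.11 to −2.47), so that the opposite movement seen with grade was not present. Plec fell by 0.57 (standard error 0.18, adjusted p = 0.0217), a call that did not hold without skin sample 2 or 5 (adjusted p = 0.0551 and 0.0542). Its other probesets gave −0.89 and, where dim, 0.53. Both cytolinkers are abundant in skeletal muscle, whose 8 markers averaged between 13.60 and 14.07 in skin and between 4.83 and 9.16 in poorly differentiated tumors, with 8 of 8 called lower. The part of muscle in these falls was not tested. Col17a1 (0.05), Lamb3 (0.58) and Cd151 (0.34) were not called, and Cd151 gave −0.10 without RbΔEC; Trp53ΔEC tumor 6. In one model over all 20 arrays, only Lama3 and Col7a1 of the 9 genes remained called.

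Undifferentiated/spindle carcinomas lay below skin in 5 of the 9 genes by limma (background 23.5% called lower) and above it in 0 (background 25.7% called higher), with 0 higher also at an unadjusted p under 0.05 and by the methods' t-test. Col17a1 (−6.34), Dst (−5.94), Lamb3 (−4.75), Lama3 (−2.82) and Itgb4 (−2.72) fell, with adjusted p between 7.11e-09 for Lamb3 and 0.000141 for Lama3. None of these 5 overlapped with skin, and 18.2% of all genes lay below it in this way. The Dst fall held for the brightest probeset and for 1450119_at (−5.07). It was small in 1423626_at (−0.61, adjusted p over all probesets = 0.0113, limma) and absent in 1421276_a_at (0.23, adjusted p over all probesets = 0.527). Itga6 differed by −0.49 and was not called (standard error 0.20, adjusted p = 0.0598), but it was called lower by the median of its probesets (−0.68, adjusted p = 0.0245), after centring the arrays (−0.57, adjusted p = 0.0379) and after quantile normalization (−0.53, adjusted p = 0.0488). It was also called without Trp53ΔEC tumor 1 (−0.57, adjusted p = 0.0444) or tumor 2 (−0.64, adjusted p = 0.00968), and by its second probeset (−0.87, adjusted p over all probesets = 0.018). Plec differed by 0.06, Cd151 by −0.41 and Col7a1 by 0.65, and none of the 3 was called. Without RbΔEC; Trp53ΔEC tumor 3, which held the lowest Col7a1 value, Col7a1 was called higher (0.99, adjusted p = 0.000662), and without Trp53ΔEC tumor 2 Cd151 was called lower (−0.54, adjusted p = 0.0477). Over all 15 tumors against skin, Dst was lower by 3.48 (adjusted p = 0.0153) and Col7a1 higher by 1.01 (adjusted p = 0.0258), with backgrounds of 18% and 17.7%. There the Dst probeset 1421276_a_at gave −0.91 and was not called (adjusted p over all probesets = 0.104, limma). The Col7a1 call did not hold without skin sample 1, 3 or 5.

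By SD of the brightest probesets the mixed tumors were the most varied class in every gene but Cd151 and Col7a1. There their SD was 0.89, against 1.09 in poorly differentiated tumors, and 0.73, against 0.78 in undifferentiated/spindle carcinomas. In the Dst probesets 1423626_at and 1421276_a_at mixed tumors were not the most varied, with SDs of 0.12 and 0.42, against 0.33 and 0.49 in skin. Against skin 3 of the 9 genes fell by limma (background 20.1% called lower), namely Col17a1 (−3.68), Dst (−3.71) and Plec (−1.64), with adjusted p of 0.0212, 0.022 and 0.00131. By the methods' t-test Col17a1 and Dst were not called, with adjusted p of 0.162 and 0.163 under unequal variances and 0.0506 and 0.052 under equal ones. Lamb3 (−2.17, adjusted p = 0.0615) was called lower as well without Trp53ΔEC tumor 3 (−2.86, adjusted p = 0.0146) or RbΔEC; Trp53ΔEC tumor 4 (−1.19, adjusted p = 0.0328), Cd151 without Trp53ΔEC tumor 3 (−0.97, adjusted p = 0.00812) and Itgb4 without Trp53ΔEC tumor 5 (−2.19, adjusted p = 0.0153), while Col7a1 was called higher without RbΔEC; Trp53ΔEC tumor 4 (0.89, adjusted p = 0.0357). Against poorly differentiated tumors 0 rose (background 7.39% called higher) and 2 fell (6.95% called lower), Col17a1 (−3.73) and Plec (−1.07), with adjusted p of 0.0334 and 0.0355. The Col17a1 call was lost without any of Trp53ΔEC tumors 4, 6 and 7 or RbΔEC; Trp53ΔEC tumors 2, 6, 7 and 8, although the difference stayed between −3.64 and −3.85 (adjusted p = 0.0546 to 0.0756). The Plec call was lost without Trp53ΔEC tumor 5 or RbΔEC; Trp53ΔEC tumor 2, 4, 6, 7 or 8, with differences of −0.80 to −1.08 (adjusted p = 0.062 to 0.0791). Without Trp53ΔEC tumor 3, which kept Dst at 11.66, the Dst difference of −2.43 became −3.57 and was called (adjusted p = 0.0136), as was Lamb3 (−3.44, adjusted p = 0.0281). Without Trp53ΔEC tumor 5, Itgb4 (−2.94, adjusted p = 0.015) and Col7a1 (−1.17, adjusted p = 0.0473) were called lower. The methods' t-test called neither Col17a1 nor Plec here.

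Against undifferentiated/spindle carcinomas, 1 of the 9 genes was called higher and 1 lower in mixed tumors by the brightest probesets. Lama3 was higher by 3.99 (standard error 0.71, adjusted p = 0.00905, limma, background 4.44% called higher), with 4 of 4 mixed tumors above every undifferentiated/spindle one (as in 5.88% of all genes). Plec was lower by 1.70 (standard error 0.31, adjusted p = 0.0106, background 6.53% called lower), again with no overlap (as in 8.18% of all genes). Both calls were lost in the methods' t-test with unequal variances (adjusted p = 0.0878 for Lama3 and 0.0932 for Plec) and held in it with equal variances. The brightest Dst probeset gave 2.23 and was not called (adjusted p = 0.246, limma). The Dst probesets 1423626_at (−1.07) and 1421276_a_at (−1.40) were lower in mixed tumors (adjusted p over all probesets = 0.00244 and 0.0182, limma). Neither overlapped, with 8.25 to 8.51 against 9.21 to 9.76 and 6.29 to 7.30 against 7.38 to 8.56. Lama3 minus Lamb3 averaged 2.60 in mixed tumors (0.64 to 4.63) and 0.83 in poorly differentiated ones (exact permutation p = 0.0286, adjusted p = 0.0367). That difference of 1.77 became 1.09 without RbΔEC; Trp53ΔEC tumor 4, and without it or Trp53ΔEC tumor 3 or 7 the exact permutation p was 0.0714.

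One mixed tumor, RbΔEC; Trp53ΔEC tumor 4, carried much of this spread. Its Itga6 (8.80), Itgb4 (5.17), Col17a1 (3.98), Dst (5.22) and Plec (9.22) were the lowest of all 20 samples, and its Lamb3 (4.40) was the second lowest. Its Lama3 (9.03) lay within the range of skin, and its Cd151 (9.72) was the lowest of all. The mean of its 5 basal keratinocyte genes was 5.84, and that of the epithelial markers 6.82. Without it, Lamb3 and Col17a1 were called higher in mixed than in undifferentiated/spindle tumors (3.57 and 3.97, adjusted p = 0.00234 and 0.0189).

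The 2 genotypes were compared over all tumors, since pRb loss was added to p53 loss in one of them. No gene of the 9 was called by limma (backgrounds 0.011% of all genes called higher and 0.022% lower), with 0 at an unadjusted p under 0.05 and 0 by the methods' t-test. The differences ran from −0.81 in Col17a1 to 0.16 in Plec, with adjusted p of 0.969 to 0.994, and the genotype ranges overlapped in every one of the 9 genes. The share of all genes with such overlap is not given here. The classes are unevenly divided between the genotypes, with 1 of 4 mixed tumors being RbΔEC; Trp53ΔEC. In one model over 20 arrays that averages the genotype difference over the classes, Col17a1 was called lower in RbΔEC; Trp53ΔEC tumors (−2.07, adjusted p = 0.0345), and there the mixed class of that genotype is tumor 4 alone.

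The members were also set beside the genes around them in the basement membrane and in other adhesions. Of 13 basement membrane genes outside the hemidesmosome, 6 rose with grade, 1 fell and 6 were not called, with a median of 1.11 against 0.01 over all genes (backgrounds 12.7% called higher and 9.9% lower). The widely expressed laminin chains Lamb1 (2.52) and Lamc1 (2.14) and the laminin linkers Nid1 (2.22) and Nid2 (2.19) rose while Lama3 and Lamb3 fell. Among 10 genes of focal adhesions, the actin-linked contacts that cells also use on matrix, 5 rose and 3 fell (backgrounds 12.7% and 9.9%). The kindlin gene Fermt2 (1.86) and the integrin-linked kinase gene Ilk (1.20) rose, and the integrin chains Itgb6 (−3.25) and Itga3 (−1.95), of which the latter is an epithelial laminin receptor chain, fell. Of 10 partners and processing enzymes 1 rose and 2 fell, against the same backgrounds of 12.7% and 9.9%, the tetraspanins Cd81 (0.65) and Cd9 (−1.03) and the cytolinker Macf1 (−0.44), and Tll1, a protease gene, was not called (−0.94).

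All 5 basal keratinocyte genes fell with grade, among them Krt14 (−7.38), Trp63 (−6.91), Krt5 (−6.89) and Sfn (−6.05). Of the epithelial markers the simple keratins Krt8 (0.91) and Krt18 (0.00) were not called. In mixed compared with poorly differentiated tumors, 8 of the 13 basement membrane genes rose and 0 fell, with all 13 differences positive and a median of 1.59 (background 7.39% called higher). Frem1 (3.82), Frem2 (2.60) and Fras1 (2.52), whose products form a complex beneath the embryonic epidermis, and Col4a2 (2.47) were the largest of these, while the hemidesmosomal genes had a median of −1.17.

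The genes whose values followed the mean of the 9 genes most closely over the 15 tumors were Trp63 (Pearson r = 0.972), the desmosomal plaque gene Pkp3 (0.972), the desmosomal gene Perp (0.967), S100a14 (0.967), Trim29 (0.967) and Arhgef4 (0.966). These r are a description across tumors that fall into classes and share 1 normalization. Trp63, a master regulator of stratified epithelia, averaged 12.00 in poorly differentiated, 8.44 in mixed and 5.09 in undifferentiated/spindle tumors.

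The single high Cd151 value was followed to the genes beside it, a choice made after the value was seen. In RbΔEC; Trp53ΔEC tumor 6 all 4 bright Cd151 probesets were high, at 13.76, 13.57, 12.76 and 12.50, against class medians of 11.22, 10.94, 9.61 and 9.45. Cd151 lies on chromosome 7, and 23 measured genes in a row, from Rnh1 to Tspan4, were taken as its neighbourhood. Of these, 17 (73.9%) lay more than 1 above the median of the 5 other poorly differentiated tumors, compared with 3.14% of all genes, and 19 (82.6%) lay above all 19 other samples, compared with 4.11%. Their median excess was 2.36 (range 0.18 to 3.86), and Sct (3.86), Gatd1 (3.70), Eps8l2 (3.65), Rassf7 (3.43) and Phrf1 (3.37) had the largest. Among the 58 other genes within 40 places on either side, 1 lay more than 1 above and the median was −0.04. The ends of the run were set on these same values, so no test is given, and DNA copy number was not measured here.

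**Figure D5:**
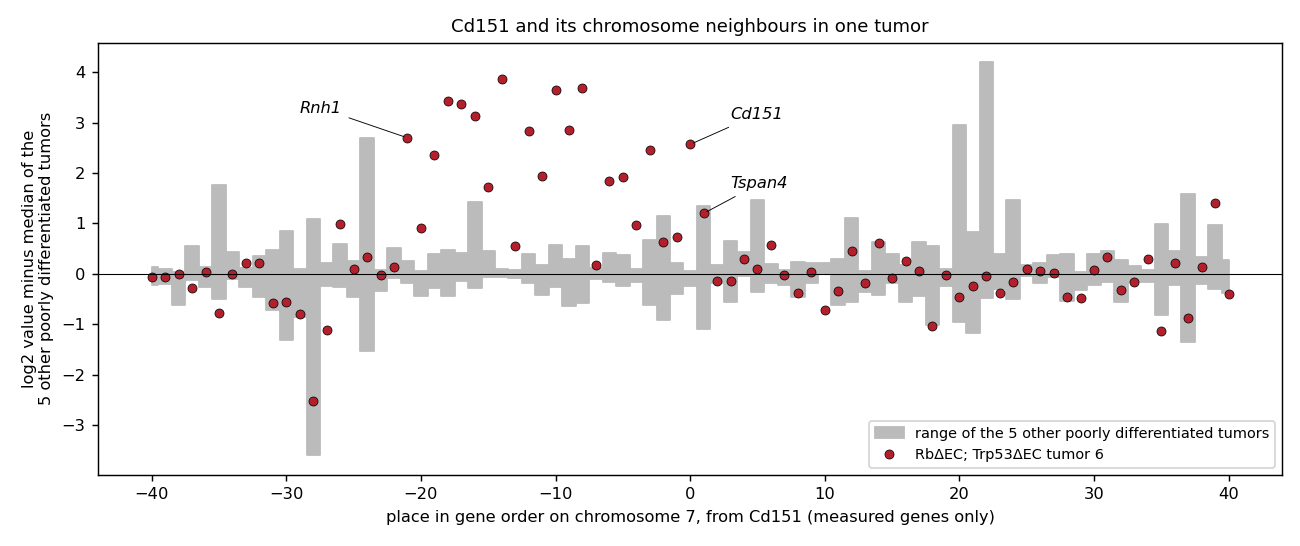
Log2 value in RbΔEC; Trp53ΔEC tumor 6 minus the median of the 5 other poorly differentiated tumors (points) for Cd151 and the 40 measured genes on either side in chromosome order, with the range of those 5 tumors in grey. From Rnh1 to Tspan4 the points have a median of 2.36, and outside that run a median of −0.04.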

How the data were processed

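Affymetrix MOE430 2.0 arrays of 20 samples were used. The deposited values are log2 values that the authors made by RMA (version not given in the sources used here). Of 45101 probesets, 64 array controls were left out. The annotation gave 1 symbol to 34945 probesets, several to 932 and none to 9160, and 18193 genes were kept by their brightest probeset. Groups were compared with limma 3.58.1 (lmFit, eBayes) run in R 4.3.3. Tests were two-sided, p-values were adjusted by Benjamini-Hochberg across the genes tested, and the threshold was 0.05, after a check on simulated data. Ratios within arrays were compared by exact permutation tests (Python 3.11.15). The number of arrays limits the precision. The 9 genes and all lists were chosen with earlier results of these data known. All 9 were described, with up to 4 genes of each list (largest called grade difference, then smallest p) and the 6 genes most correlated with their mean. List symbols without a match in the annotation used were not analysed here. Alternatives concerned probeset, normalization, dim genes (mean under 5), adjustment, test, samples, classes, covariates and a replicate block. Counting mixed tumor 4 with the undifferentiated/spindle class, the second probesets, and leaving samples out of the within-array ratios were chosen after seeing the data. Same-numbered tumors of the 2 genotypes were taken as unpaired.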

Additional observations from a re-analysis of the deposited data

Results flagged for a closer look

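In 8 of 54 checks of a group's values for one gene, the highest or lowest sample lay far from the others. Chance gives about 1 in 20 for independent checks of groups with a single normal distribution. The genotype groups pool the classes and share tumors with the class groups, so the 8 cannot be held against that rate. Cd151 in RbΔEC; Trp53ΔEC tumor 6 stood at 13.76, against a next value of 11.25 among poorly differentiated tumors and of 11.30 among tumors of its genotype. Col7a1 was 7.01 in RbΔEC; Trp53ΔEC tumor 3, against 8.57 in the next undifferentiated/spindle carcinoma, and 7.93 in Trp53ΔEC tumor 3, against 8.75 in the next tumor of its genotype. Dst was 11.61 in poorly differentiated RbΔEC; Trp53ΔEC tumor 2, against 10.65. Plec was 9.22 in mixed RbΔEC; Trp53ΔEC tumor 4, against 11.06 in the next tumor of its genotype, which belongs to another class. In skin sample 4 both Itgb4 (9.35, next 9.01) and Lama3 (9.49, next 8.76) stood above the other 4 skin samples.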

How the results depend on the processing

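The count of genes lower with grade was 6 under each alternative that gave a count and with each sample left out, except that it was 7 when mixed RbΔEC; Trp53ΔEC tumor 4 was counted with the undifferentiated/spindle class, where Col7a1 was called too (−1.06, adjusted p = 0.0469). The second probesets were left out of these counts. The Dst probesets that rose with grade (1.86 in 1423626_at and 1.91 in 1421276_a_at) were not used alone as an alternative. In the same comparison 1 gene (Plec) became called higher after centring the arrays or leaving out dim genes. In 1 model over 20 arrays, poorly differentiated tumors over skin gave 2 higher and 0 lower, mixed tumors gave 5 lower against skin, 5 lower against poorly differentiated and 3 higher against undifferentiated/spindle tumors, all tumors gave 4 lower against skin, and 1 gene was lower in RbΔEC; Trp53ΔEC tumors. The methods' t-test, with unequal variances, gave 1 lower for mixed tumors against skin (1 also with equal variances), 0 lower against poorly differentiated (0 also with equal variances), 0 higher and 0 lower against undifferentiated/spindle (1 and 1 with equal variances), and 4 lower for all tumors against skin. Without dim genes mixed tumors had 4 lower than poorly differentiated ones, and with the median of the probesets all tumors had 2 lower than skin. The share of all genes called was computed for the main fit alone. The counts under alternatives in this section therefore have no background, and show only how the calls depend on the setting.

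Leaving out one sample at a time gave between 0 and 1 higher with grade, 0 and 1 higher and 5 and 7 lower for undifferentiated/spindle against skin, 0 and 1 higher for mixed against skin, 0 and 1 higher for all tumors, 3 and 4 higher and 1 and 2 lower for poorly differentiated against skin, 3 and 5 lower for mixed against skin, 0 and 4 lower for mixed against poorly differentiated, and 1 and 3 higher for mixed against undifferentiated/spindle. Uncalled differences that changed sign in this way ran, for poorly differentiated over skin, from −0.04 to 0.17 in Col17a1 and from −0.10 to 0.46 in Cd151. Plec over skin in undifferentiated/spindle carcinomas ran from −0.06 to 0.15, and Itga6 over skin in mixed tumors from −0.68 to 0.56. Between mixed and undifferentiated/spindle tumors Col7a1 ran from −0.37 to 0.24, Itga6 from −0.19 to 1.05 and Cd151 from −0.56 to 0.14. Between genotypes Plec ran from −0.02 to 0.43, Itgb4 from −0.70 to 0.05, Lamb3 from −0.99 to 0.08, Col7a1 from −0.35 to 0.10, Lama3 from −1.20 to 0.01 and Cd151 from −0.23 to 0.34, and the interaction from −2.43 to 0.77 in Col17a1, −1.90 to 0.39 in Lama3 and −1.83 to 0.01 in Itgb4.

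Other sign changes were few. The dim second Lama3 probeset gave 0.02 with grade, −0.32 for poorly differentiated over skin and 0.26 for mixed over poorly differentiated. Plec gave −0.13 with grade when mixed tumors were counted as undifferentiated/spindle, and over skin in undifferentiated/spindle carcinomas −0.36 by its second probeset, −0.36 by the median of its probesets and −0.01 after centring, where Col17a1 in poorly differentiated tumors over skin gave −0.05. By the median of the probesets, all tumors over skin gave −0.05 in Itga6 and −0.0018 in Lama3. Between genotypes the model over 20 arrays gave −0.39 in Plec and −0.25 in Cd151, class as a covariate −0.26 and −0.08, and poorly differentiated tumors alone 0.27 in Itgb4, 0.13 in Dst, 0.19 in Lama3, 0.57 in Lamb3 and 0.35 in Col7a1. The causes were not tested. Counting tumor 4 in this way, the second probesets and leaving samples out of the within-array ratios were chosen after seeing the data.

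With a replicate block, all tumors over skin had 0 genes higher and 3 lower, with −0.0026 in Itga6 and −0.76 in Lama3, and the genotypes had 0 called. Correlations between same-numbered tumors of the genotypes ran from −0.48 to 0.64 over 7 pairs, 2 best with their own number. Many of these pairs differ in histology, so the check cannot settle whether the numbers mark a pairing. Values below the array medians, as in Lamb3 and Col17a1 of undifferentiated/spindle carcinomas, limit how far a fall can be read.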
